A study of Mus musculus with 22 samples.

Results

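Motile cilia and ependymal genes are a set of 37 genes that build the beating cilium or mark the cells that carry it, examined in mRNA sequencing of the hippocampal CA1 sector of 22 female mice. The genes were listed by name, and the list was drawn up with a result of these data known, the lower Tekt2 level under calorie restriction at 15 months. Of the 37 genes, 28 matched a row of the expression matrix by name and 7 dynein heavy chain genes by their older Dnahc symbols, so that 35 of the 23361 genes in the matrix are described. Dnah3 and Dnah12 matched no row and were not analysed here. All 35 members passed the filter on low values and were among the 16978 genes tested.

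The mice were wild-type offspring of a Swiss Webster by DBA/C57BL6 cross and were fed either ad libitum (AL) or a calorie-restricted (CR) diet, with the 30% reduction taken from carbohydrate, from about 2.5 months of age. AL and CR mice were killed and perfused at 5 months (n = 5 each) or at 15 months (n = 6 each), and 1 library was made from the dissected CA1 of each mouse. Replicates carry the numbers of the labels, which start at 0. The level of a gene is given as fragments per kilobase of exon, scaled to the number of mapped fragments (FPKM). Differences are given as log2 fold changes of FPKM + 0.1, which understate the change of genes with low levels, and a gene was called when its adjusted p from limma, over all 16978 genes, was under 0.05.

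Ependymal cells line the ventricles of the brain, including the lateral ventricle that borders the hippocampus, and their tufts of motile cilia move the cerebrospinal fluid. A motile cilium has a ring of doublet microtubules stiffened by tektins, dynein arms that slide the doublets against each other, radial spokes, and a central pair with its projections that sets the beat. The transcription factor Foxj1, together with factors of the RFX family, switches on the genes for these parts. The pyramidal neurons and glia of CA1 carry at most a single primary cilium, which does not beat and lacks most of these parts. In bulk tissue, fewer ciliated cells and less RNA per ciliated cell cannot be told apart.

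Most members were expressed at low levels. Averaged over the 22 libraries, 2 members exceeded 10 FPKM, 21 lay between 1 and 10 FPKM, and 12 were under 1 FPKM. Rsph9, a radial spoke head protein, was the highest at 19.5 FPKM, followed by Ccdc39 at 11.5 FPKM and Rsph1 at 5.44 FPKM. The lowest was Dnah11, an outer arm dynein heavy chain, at 0.230 FPKM. No value of any member was 0 at 5 months, and 2 of 210 values in AL mice and 5 of 210 in CR mice were listed at 0 at 15 months. The libraries themselves were alike in their overall distribution, with a median FPKM between 2.51 and 3.10 and between 18281 and 19175 genes above 0.

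RefSeq promoter sequences on GRCm38.p6, from 250 bases before to 50 bases after the start, were found for 30 of the 35 members. They were searched on both strands for the X-box of RFX factors, with a spacer of 0 to 3 bases between its parts, and for TGTTTAC, the core bound by forkhead factors such as Foxj1. The windows printed here set the X-box of Tekt2, Dnaic2, Spag16, Iqca and Ccdc151, which differed in their response to age, beside the forkhead core of Ak7 and Stoml3, which fell steeply. Each is 60 bases long, is written 5′ to 3′ in the direction of the gene, and has the match in capitals.
Tekt2, chr4:126325689-126325748, minus strand: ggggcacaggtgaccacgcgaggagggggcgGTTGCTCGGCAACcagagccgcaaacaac
Dnaic2, chr11:114727359-114727418, plus strand: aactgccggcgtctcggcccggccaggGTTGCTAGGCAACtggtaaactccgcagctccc
Spag16, chr1:69826844-69826903, plus strand: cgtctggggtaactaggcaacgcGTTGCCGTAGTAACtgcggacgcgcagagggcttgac
Iqca, chr1:90153447-90153506, minus strand: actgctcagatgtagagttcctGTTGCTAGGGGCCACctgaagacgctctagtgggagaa
Ccdc151, chr9:22002769-22002828, minus strand: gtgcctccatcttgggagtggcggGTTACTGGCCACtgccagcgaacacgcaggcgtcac
Ak7, chr12:105705825-105705884, plus strand: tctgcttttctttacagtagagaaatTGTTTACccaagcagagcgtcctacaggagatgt
Stoml3, chr3:53488589-53488648, plus strand: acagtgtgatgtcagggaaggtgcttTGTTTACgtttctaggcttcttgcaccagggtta

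The X-box was present in 8 of the 30 members with a promoter (26.7%), which were Ccdc151, Dnaic1, Dnaic2, Hydin, Iqca, Spag16, Spef2 and Tekt2, and in 474 of all 27025 genes with a promoter (1.75%). In a wider list of motile ciliary genes outside the set, 7 of 40 with a promoter held one (17.5%). In Tekt2 the match began 29 bases before the start, in Dnaic2 33 bases, in Iqca 48 bases, in Spag16 103 bases and in Ccdc151 170 bases before it. The forkhead core was found in 2 of the 30 members (6.67%), in Ak7 131 bases and in Stoml3 92 bases before the start, in 4 of the 40 genes of the wider list (10%) and in 4.05% of all genes with a promoter. A match is a run of letters and was not tested as a binding site. Among the members with an X-box, Dnaic2, Iqca, Spag16 and Spef2 were lower with age in both diets, Tekt2 was higher with age in AL mice, and Ccdc151, Dnaic1 and Hydin were called in neither diet. Both forkhead members were lower with age in both diets.

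Most members had lower values at 15 than at 5 months. In AL mice, 17 of the 35 members were called lower and 2 higher, against a background of 9.97% of all genes tested called lower and 10.7% called higher. The median log2 fold change of the members was -0.82, beside -0.0018 over all genes tested, and 28 members had a negative and 7 a positive value. In CR mice, 21 of the 35 were called lower and 0 higher, against 2.26% and 1.1% of all genes tested. The members' median log2 fold change was -1.16 in CR mice, with 34 negative values, beside 0.0014 over all genes. The libraries of the age groups did not overlap for 5 members in AL mice, all of them lower, where 6.77% of all genes were lower without overlap, and for 23 members in CR mice, all of them lower, where the background was 2.11%. With libraries shifted to a common median, 2286 genes were called lower and 1441 higher in AL mice, in place of 1693 and 1809, and the members 19 lower and 2 higher. The age comparisons share the libraries of 15-month-old mice with the contrast that drew attention to Tekt2. Their 5-month libraries entered that contrast only through the estimate of the spread, which all groups share.

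The 16 members called lower in both diets were Foxj1, Tekt1, Dnah11, Dnaic2, Dnali1, Armc4, Ccdc40, Rsph1, Spag16, Spag17, Spef2, Ccdc153, Ak7, Tmem212, Iqca and Stoml3. Dnah9 was called lower in AL mice only, and Dnah2, Rsph4a, Rsph9, Spag6 and Ccdc113 in CR mice only. The difference between the age effects in the diets was tested as an interaction, and no member and no gene of the 16978 was called for it. At an unadjusted p under 0.05, 6 of the 35 members and 1301 of the 16978 genes passed the interaction test. The interaction value, CR age effect minus AL age effect, was negative for 33 members and positive for 2. Its median was -0.52 for the members and 0.0045 for all genes tested. The interaction holds the contrast that drew attention to Tekt2, so these values are a description. The 11 members called in neither diet were Tekt4, Dnah1, Dnah5, Dnah6, Dnah10, Dnaic1, Ccdc114, Ccdc151, Lrrc6, Zmynd10 and Hydin.

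**Figure D1:**
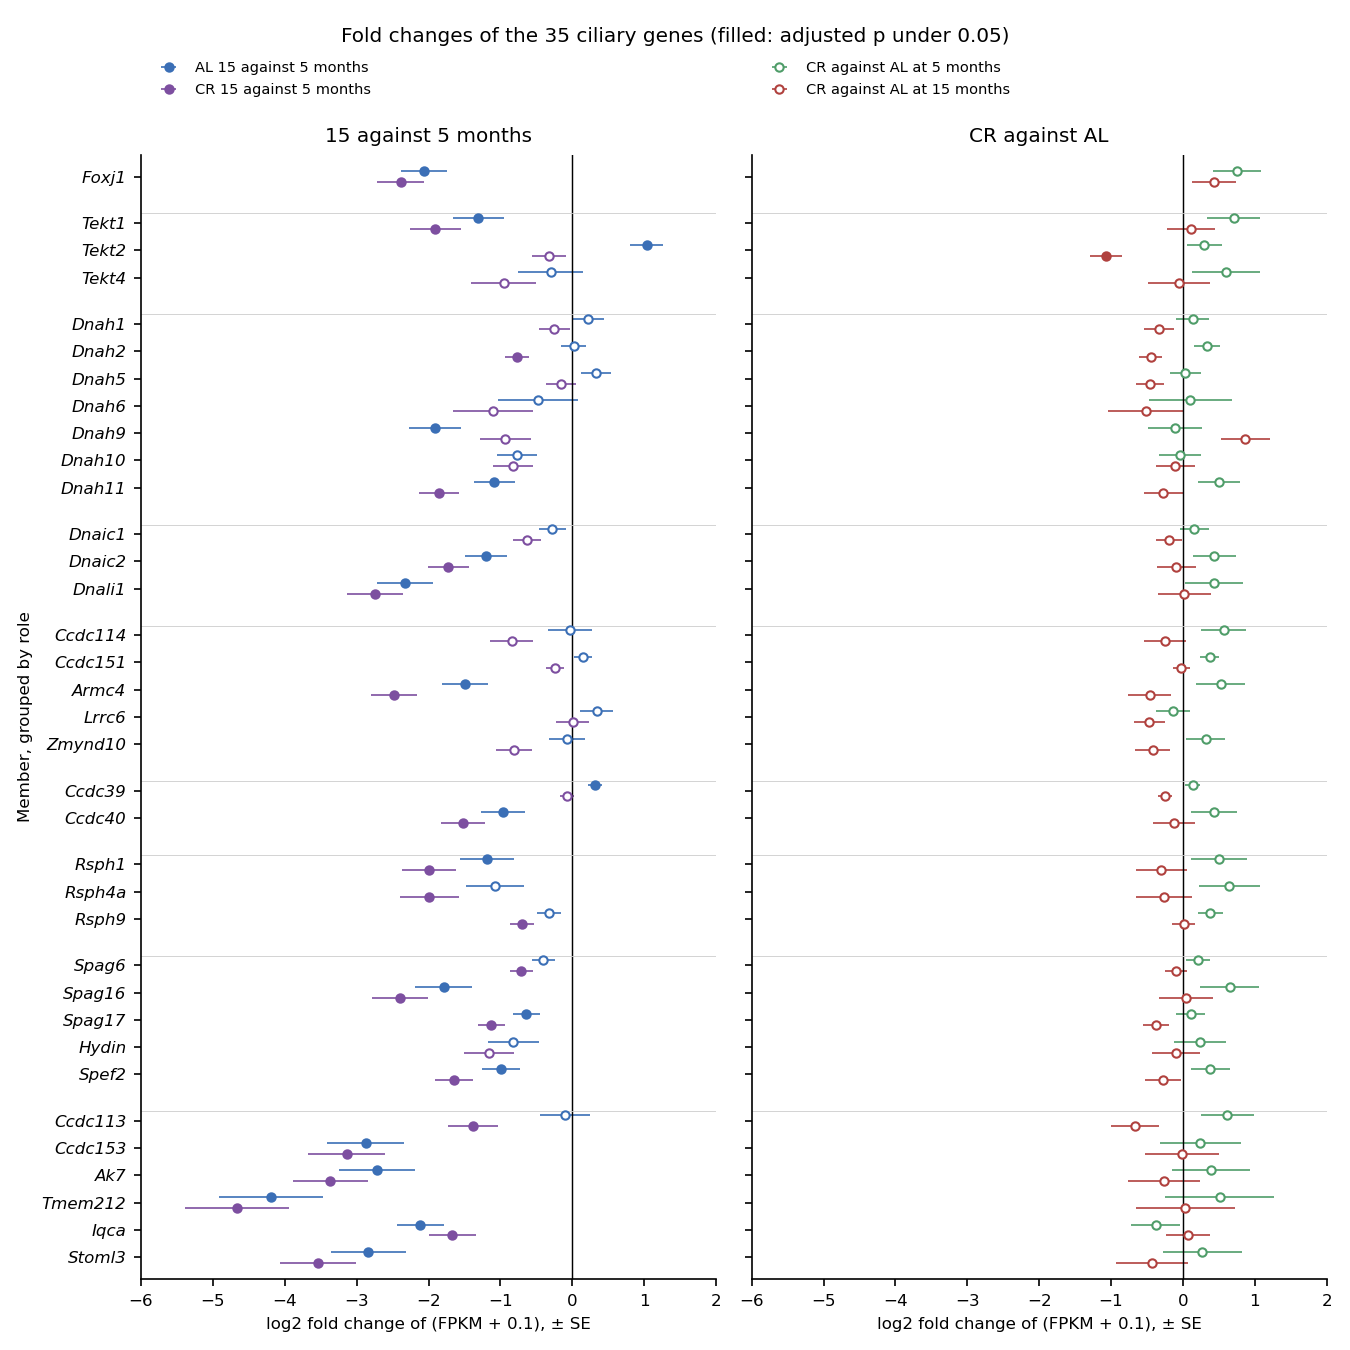
Log2 fold changes of FPKM + 0.1 (horizontal axis, ± SE) of the 35 members, grouped by role, for age in each diet on the left and for diet at each age on the right. Filled points had an adjusted p under 0.05: age effects lie mostly left of 0, down to -4.67 for Tmem212 in CR mice, while no diet effect at 5 months is filled.

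Foxj1, the regulator that drives the motile cilium program, fell with age in both diets. Its gene lies at chr11:116330704-116335399 on GRCm38, on the minus strand, and shares no exon with another annotated gene. In AL mice at 5 months its libraries read 2.57, 4.57, 8.16, 4.06 and 7.60 FPKM, and at 15 months the lowest was 0.837, the median 0.959 and the highest 2.48 FPKM. In CR mice at 5 months they read 7.55, 12.1, 4.66, 6.87 and 14.5 FPKM, and at 15 months the lowest was 1.16, the median 1.54 and the highest 2.25 FPKM. Every 5-month library was thus above every 15-month library of the same diet. The log2 fold change was -2.07 ± 0.32 (SE) in AL mice, with a limma adjusted p of 0.000453, and -2.39 ± 0.32 in CR mice, with an adjusted p of 0.000308.

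**Figure D2:**
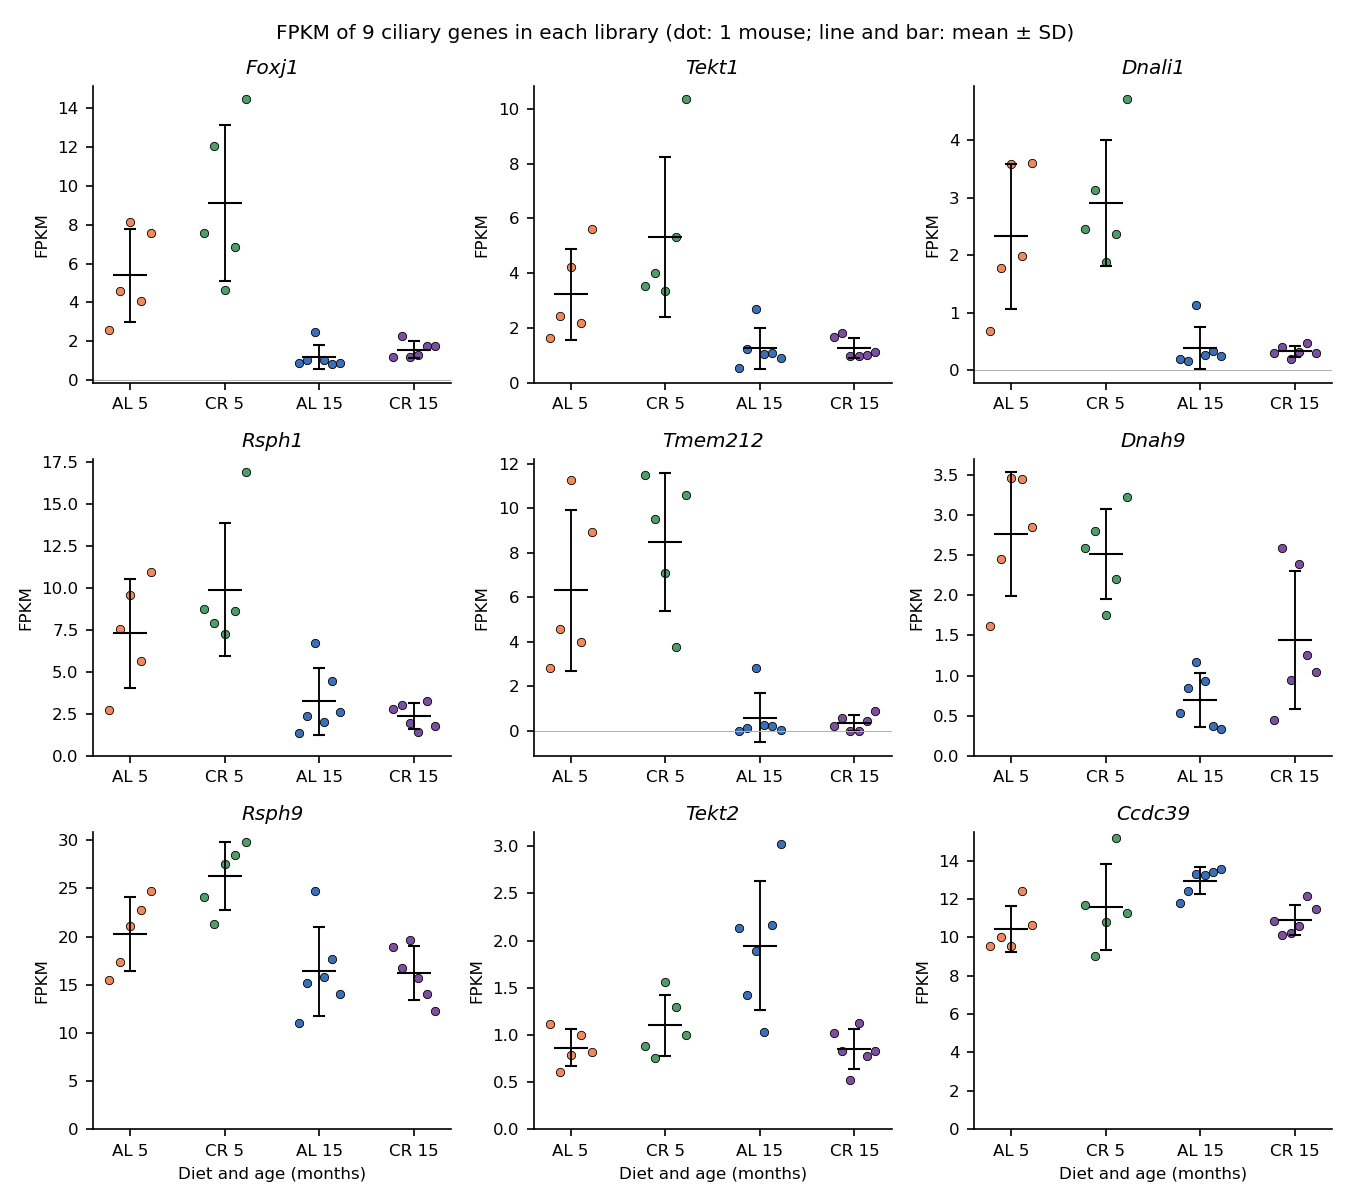
FPKM (vertical axes, linear and including 0) of 9 members in AL and CR mice at 5 and 15 months; each dot is 1 mouse, and the line and bar are the mean ± SD. Foxj1, Tekt1, Dnali1, Rsph1 and Tmem212 were lower at 15 months in both diets, Dnah9 overlapped between ages in CR mice, and Tekt2 was highest in AL mice at 15 months, up to 3.02 FPKM.

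Among the tektins, Tekt1 fell with age and Tekt4 was not called. Tekt1, which lies at chr11:72344722-72362442 on the minus strand, read 1.63, 2.45, 4.24, 2.19 and 5.62 FPKM in AL mice and 3.54, 4.02, 3.35, 5.31 and 10.3 FPKM in CR mice at 5 months. At 15 months the lowest, median and highest were 0.548, 1.07 and 2.69 FPKM in AL mice and 0.961, 1.07 and 1.80 FPKM in CR mice. The AL ages overlapped, through a low library at 5 months and a high one at 15 months, and the CR ages did not. Its log2 fold change was -1.31 ± 0.35 in AL mice (limma adjusted p = 0.0132) and -1.90 ± 0.35 in CR mice (adjusted p = 0.00381). Tekt4 had log2 fold changes of -0.30 and -0.96, which were smaller relative to their SE of 0.45.

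Of the 7 dynein heavy chains measured, the motors of the arms, 2 were called lower with age in AL mice, Dnah9 and Dnah11, and 2 in CR mice, Dnah2 and Dnah11. Dnah11, an outer arm chain, fell from 0.324 ± 0.159 (SD, n = 5) to 0.1004 ± 0.0878 (SD, n = 6) FPKM in AL mice and from 0.5001 ± 0.253 to 0.0579 ± 0.0243 FPKM in CR mice. Dnah9, another outer arm chain, read 1.62, 2.45, 3.46, 3.45 and 2.85 FPKM in AL mice at 5 months and 0.338 (lowest), 0.688 (median) and 1.17 (highest) FPKM at 15 months, with no overlap. Its log2 fold change in AL mice was -1.91 ± 0.36, with a limma adjusted p of 0.00128.

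In CR mice Dnah9 read 2.59, 2.80, 1.75, 2.21 and 3.23 FPKM at 5 months and 0.442, 1.15 and 2.59 FPKM as the lowest, median and highest at 15 months. Here the ages overlapped, and the log2 fold change of -0.93 ± 0.36 was not called (limma adjusted p = 0.164). Dnah2, an inner arm chain, went the other way round: its log2 fold change was 0.02 in AL mice (adjusted p = 0.946) and -0.77 in CR mice (adjusted p = 0.0141), where its mean fell from 0.713 ± 0.174 to 0.373 ± 0.0672 FPKM. The interaction p for Dnah2, a description as above, was 0.00382 unadjusted and 0.608 adjusted by limma. Dnah6, an inner arm chain, had wide spreads, from 0.160 to 2.55 FPKM among CR mice at 15 months, and was called in neither diet. Dnah1, Dnah5 and Dnah10 had log2 fold changes between -0.76 and 0.33 in AL mice and between -0.83 and -0.15 in CR mice.

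Of the intermediate and light chains of the arms, Dnaic2 and Dnali1 fell in both diets and Dnaic1 was not called. Dnali1, an inner arm light chain at chr4:125055338-125065703 on the minus strand, read 0.691, 1.77, 3.58, 1.99 and 3.61 FPKM in AL mice and 2.46, 3.14, 1.88, 2.36 and 4.71 FPKM in CR mice at 5 months. At 15 months its lowest, median and highest values were 0.166, 0.264 and 1.14 FPKM in AL mice and 0.203, 0.313 and 0.481 FPKM in CR mice. The highest AL library at 15 months exceeded the lowest at 5 months, and the CR ages stood apart. The log2 fold changes were -2.33 ± 0.39 (limma adjusted p = 0.00065) and -2.75 ± 0.39 (adjusted p = 0.000386). Dnaic2, an outer arm intermediate chain, changed by -1.20 and -1.73 on the same scale, while its partner Dnaic1 had -0.28 (adjusted p = 0.322) and -0.63 (adjusted p = 0.0786). The means of Dnaic1 were 2.22 ± 0.756 and 1.78 ± 0.393 FPKM at 5 and 15 months in AL mice.

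The genes for docking the outer arms and for assembling dyneins in the cytoplasm had 1 of 5 members called. Armc4, a docking protein, fell from 0.452 ± 0.262 to 0.0920 ± 0.0743 FPKM in AL mice and from 0.669 ± 0.307 to 0.0329 ± 0.0290 FPKM in CR mice, without overlap in either diet, and 1 CR library at 15 months was listed at 0. Its log2 fold changes were -1.49 and -2.48, with limma adjusted p of 0.00331 and 0.000245. The other 4 were called in neither diet. Ccdc151, also a docking protein, had means of 3.06 ± 0.328 and 3.41 ± 0.394 FPKM in AL mice at the respective ages, a log2 fold change of 0.15 with a 95% interval of -0.11 to 0.41. Zmynd10 and Lrrc6, cytoplasmic assembly factors, had log2 fold changes of -0.08 and 0.34 in AL mice and -0.81 and 0.01 in CR mice. For Ccdc114, a docking protein, they were -0.03 and -0.84.

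The pair of proteins that act together as the ruler of the axonemal repeat, Ccdc39 and Ccdc40, moved apart in AL mice. Ccdc40 fell from 0.805 ± 0.315 to 0.375 ± 0.247 FPKM in AL mice, a log2 fold change of -0.97 ± 0.31 (limma adjusted p = 0.0307), and from 1.06 ± 0.192 to 0.312 ± 0.124 FPKM in CR mice (-1.52 ± 0.31, adjusted p = 0.00679). The call in AL mice was lost when any of 7 single libraries was left out, which were AL 5 months replicates 1, 2 and 4 and AL 15 months replicates 0, 1, 4 and 5, with adjusted p between 0.0520 and 0.0864, and in a separate fit of the AL groups (adjusted p = 0.0748). The opposite change of Ccdc39 is given together with Tekt2.

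All 3 radial spoke head genes were called lower in CR mice and only Rsph1 in AL mice. Rsph1 read 2.72, 7.53, 9.58, 5.66 and 10.9 FPKM in AL mice and 8.76, 7.91, 7.22, 8.63 and 16.9 FPKM in CR mice at 5 months. At 15 months its lowest, median and highest values were 1.36, 2.47 and 6.74 FPKM in AL mice and 1.44, 2.37 and 3.29 FPKM in CR mice. The ages overlapped in AL mice and not in CR mice. The log2 fold changes of Rsph1 were -1.19 ± 0.37 (limma adjusted p = 0.0298) and -1.99 ± 0.37 (adjusted p = 0.00422). The AL call was lost without any 1 of AL 5 months replicates 1, 2 and 4 and AL 15 months replicates 0, 1 and 3, with adjusted p of 0.0560 to 0.0878, and in a separate fit of the AL groups (adjusted p = 0.0697).

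Rsph9, the member of the highest level, had means of 20.3 ± 3.81 and 16.4 ± 4.64 FPKM in AL mice (-0.33, limma adjusted p = 0.173) and fell from 26.3 ± 3.51 to 16.2 ± 2.83 FPKM in CR mice (-0.70, adjusted p = 0.0238). Its CR call was lost without any 1 of CR 5 months replicates 2, 3 and 4 and CR 15 months replicate 5, with adjusted p of 0.0551 to 0.0710. Rsph4a had log2 fold changes of -1.08 (adjusted p = 0.0652) and -1.99 (adjusted p = 0.00784). The size of the change thus differed within the spoke head, from 0.70 for Rsph9 to 1.99 for Rsph1 in CR mice.

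Of the 5 genes of the central pair apparatus, Spag16, Spag17 and Spef2 fell in both diets, Spag6 in CR mice, and Hydin was not called. Spag16 moved most, from 0.977 ± 0.560 to 0.197 ± 0.137 FPKM in AL mice and from 1.65 ± 1.21 to 0.193 ± 0.0754 FPKM in CR mice, with log2 fold changes of -1.79 and -2.40 (limma adjusted p = 0.00366 and 0.00136). For Spef2 they were -0.995 and -1.65 (adjusted p = 0.0119 and 0.00109), and its libraries did not overlap between ages in either diet. Spag17 had -0.64 and -1.13 (adjusted p = 0.0224 and 0.00171), and its AL call was lost without AL 5 months replicate 2 or replicate 4, with adjusted p of 0.0782 and 0.0696. Spag6, of a higher level, changed from 5.17 ± 1.45 to 3.07 ± 0.442 FPKM in CR mice (-0.71, adjusted p = 0.0128) and had -0.40 in AL mice (adjusted p = 0.0704). Its CR call was lost in a separate fit of those 2 groups, with a limma adjusted p of 0.0584. Hydin, with -0.82 and -1.16, had limma adjusted p of 0.0992 and 0.0728.

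The 4 largest falls with age in either diet were those of Tmem212, Ccdc153, Stoml3 and Ak7, which are not parts of the arms, spokes or central pair. Tmem212, a membrane protein gene used as a marker of ependymal cells, lies at chr3:27866066-27896368 on the minus strand. It read 2.80, 4.56, 11.3, 3.99 and 8.93 FPKM in AL mice and 11.5, 9.52, 7.10, 3.78 and 10.6 FPKM in CR mice at 5 months. At 15 months its lowest, median and highest values were 0, 0.153 and 2.81 FPKM in AL mice and 0, 0.306 and 0.886 FPKM in CR mice. It was listed at 0 in 1 AL and 2 CR libraries at 15 months, and a single AL library, replicate 2, lay just above the lowest AL library of 5 months. The log2 fold changes were -4.19 ± 0.72 (limma adjusted p = 0.000791) and -4.67 ± 0.72 (adjusted p = 0.000953).

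Ccdc153, Ak7, Stoml3 and Iqca fell in both diets as well. Ak7, an adenylate kinase of the axoneme, read 0.938, 2.02, 4.77, 1.69 and 4.45 FPKM in AL mice and 3.69, 4.01, 2.08, 1.70 and 5.38 FPKM in CR mice at 5 months, and medians of 0.209 and 0.236 FPKM at 15 months. Its log2 fold changes were -2.72 and -3.37 (limma adjusted p = 0.00154 and 0.000953). Ccdc153, a coiled-coil protein of ependymal cilia, had -2.88 and -3.14, and Stoml3, a stomatin-like membrane protein, -2.84 and -3.53, with 1 AL and 2 CR libraries of Stoml3 listed at 0 at 15 months.

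Iqca, an ATPase-domain protein, had -2.11 in AL and -1.67 in CR mice, without overlap in either diet. Ccdc113 had -0.10 in AL mice (limma adjusted p = 0.866) and -1.39 in CR mice (adjusted p = 0.0290), and its CR call was lost without CR 5 months replicate 1, 3 or 4, with adjusted p of 0.0513 to 0.0963. Dnah2 was called in CR mice with all libraries and had an adjusted p of 0.0522 without CR 5 months replicate 4.

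The only members called higher at 15 months were Tekt2 and Ccdc39, both in AL mice. Tekt2, a tektin of the doublet microtubules, read 1.12, 0.608, 0.790, 0.998 and 0.815 FPKM in AL mice and 0.886, 0.758, 1.56, 1.29 and 0.99996 FPKM in CR mice at 5 months. At 15 months its lowest, median and highest values were 1.03, 2.01 and 3.02 FPKM in AL mice and 0.524, 0.828 and 1.13 FPKM in CR mice. The 4 highest Tekt2 values of all 22 libraries were those of AL mice at 15 months, whose lowest library lay among those of the other groups. The log2 fold change with age was 1.04 ± 0.23 in AL mice (limma adjusted p = 0.00442) and -0.33 ± 0.23 in CR mice (adjusted p = 0.488). The AL value rests on the same libraries that drew attention to Tekt2, and is given as a description.

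Ccdc39 read 9.57, 10.01, 9.57, 12.4 and 10.6 FPKM in AL mice at 5 months and 11.8, 13.3 and 13.6 FPKM as the lowest, median and highest at 15 months. The log2 fold change was 0.31 ± 0.10 (limma adjusted p = 0.0267), and the call was lost without AL 5 months replicate 0, 1 or 2, with adjusted p of 0.0593 to 0.0730. In CR mice the means were 11.6 ± 2.24 and 10.9 ± 0.773 FPKM (-0.07, adjusted p = 0.751).

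Both genes overlap a gene on the opposite strand, and the library kit did not mark strand, so that reads from the shared bases cannot be assigned to either gene. In the GENCODE M21 annotation of GRCm38, 34.2% of the exon bases of Ccdc39, at chr3:33812362-33844310, lie in exons of Ttc14, and 25.7% of those of Tekt2, at chr4:126322121-126325688, in exons of Gm12945, the largest shares among the members. Ttc14 had means of 25.1 and 27.8 FPKM in AL mice at 5 and 15 months, a log2 fold change of 0.15 (limma adjusted p = 0.428). In all, 15 members shared exon bases with another gene: 4 of them were called lower and 2 higher with age in AL mice, and 5 lower in CR mice. Of the 20 members without shared exon bases, 13 were called lower in AL mice and 16 in CR mice, and 0 were called higher. Of all genes tested, 9.97% were called lower in AL mice and 2.26% in CR mice. Apart from Ccdc39 and Tekt2, the shared part of the exon bases was small, from 0.591% for Dnaic1 to 11.5% for Spag6. Whether sharing bears on the calls was not tested.

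At 5 months, CR and AL mice were not distinguished for any member. The fold changes of this contrast used none of the libraries of the 15-month comparison, while its p-values used a spread estimated over all 4 groups. The contrast called 0 of the 35 members in limma at an adjusted p under 0.05, and 0% of all genes tested. At an unadjusted p under 0.05, 3 members passed, against 789 of all genes (4.65%). Values were nevertheless mostly higher in CR mice: 31 members had a positive and 4 a negative log2 fold change, with a median of 0.37 beside 0 for all genes tested to 2 decimals. The range over the members was from -0.38 for Iqca to 0.75 for Foxj1. In the same contrast all 14 choroid plexus genes of a list described with the other cell types had positive values, with a median of 1.78, of which 0 were called and 9 had an unadjusted p under 0.05, and the part of that tissue in the members' values was not tested.

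The 3 members past the unadjusted threshold were Ccdc151, Foxj1 and Rsph9. Foxj1 averaged 5.39 ± 2.40 (SD, n = 5) FPKM in AL and 9.12 ± 4.02 (SD, n = 5) FPKM in CR mice at 5 months, a log2 fold change of 0.75 with a 95% interval of 0.05 to 1.46. Ccdc151 had 0.37 with an interval of 0.10 to 0.64, and Rsph9 0.38 with 0.01 to 0.75, and the limma adjusted p of all 3 was 1. The groups overlapped for all 3. For Tekt2 the log2 fold change at 5 months was 0.30 with an interval of -0.21 to 0.80.

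At 15 months, the contrast of CR against AL is the one by which Tekt2 was picked out, and its values are a description. Tekt2 had a log2 fold change of -1.06 ± 0.22 and an adjusted p of 0.0387 in limma, the single member past the threshold, where 0.412% of all genes were called lower. The next members by adjusted p were Dnah2, with -0.45 and an adjusted p of 0.1704, Ccdc39, with -0.25 and 0.181, and Dnah9, with 0.87 and 0.202. The members' log2 fold changes had a median of -0.25, with 27 negative and 8 positive, and ran from -1.06 for Tekt2 to 0.87 for Dnah9.

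The members at both ends of the diet contrast at 15 months, Tekt2 and Dnah9, had different age patterns. Tekt2 stood high in AL mice at 15 months and near its 5-month level in CR mice, with means of 1.94 ± 0.685 and 0.850 ± 0.209 FPKM. Dnah9 stood low in AL mice at 15 months, with a mean of 0.697 ± 0.335 FPKM, and at 1.44 ± 0.856 FPKM in CR mice. The libraries overlapped between diets for both genes. Foxj1, with 0.43 ± 0.31, and Tekt1, with 0.11 ± 0.34, had positive values at this age. The adjusted p of Tekt2 rose over the threshold when any of 9 single libraries was left out (AL 5 months replicate 2, AL 15 months replicates 0, 2, 4 and 5, CR 15 months replicates 1, 2, 3 and 4), with values of 0.0501 to 0.0811, while its log2 fold change stayed between -1.14 and -0.93.

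The members varied together between mice of the same group. Each library was summarised by the median, over the 35 members, of log2(FPKM + 0.1) minus the mean of the gene over all libraries. In CR mice this measure lay between 0.47 and 1.05 at 5 months and between -0.99 and -0.39 at 15 months. In AL mice it lay between -0.25 and 1.11 at 5 months and between -0.81 and 0.41 at 15 months, so that the AL age groups overlapped and the CR age groups did not. AL 5 months replicate 0 was the lowest of its group in 29 of the 35 members. AL 15 months replicate 2 was the highest of its group in 29 members and the highest of all 12 mice of 15 months in 28, among them Foxj1 at 2.48 FPKM and Tmem212 at 2.81 FPKM. CR 5 months replicate 4 was the highest of its group in 21 members.

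**Figure D3:**
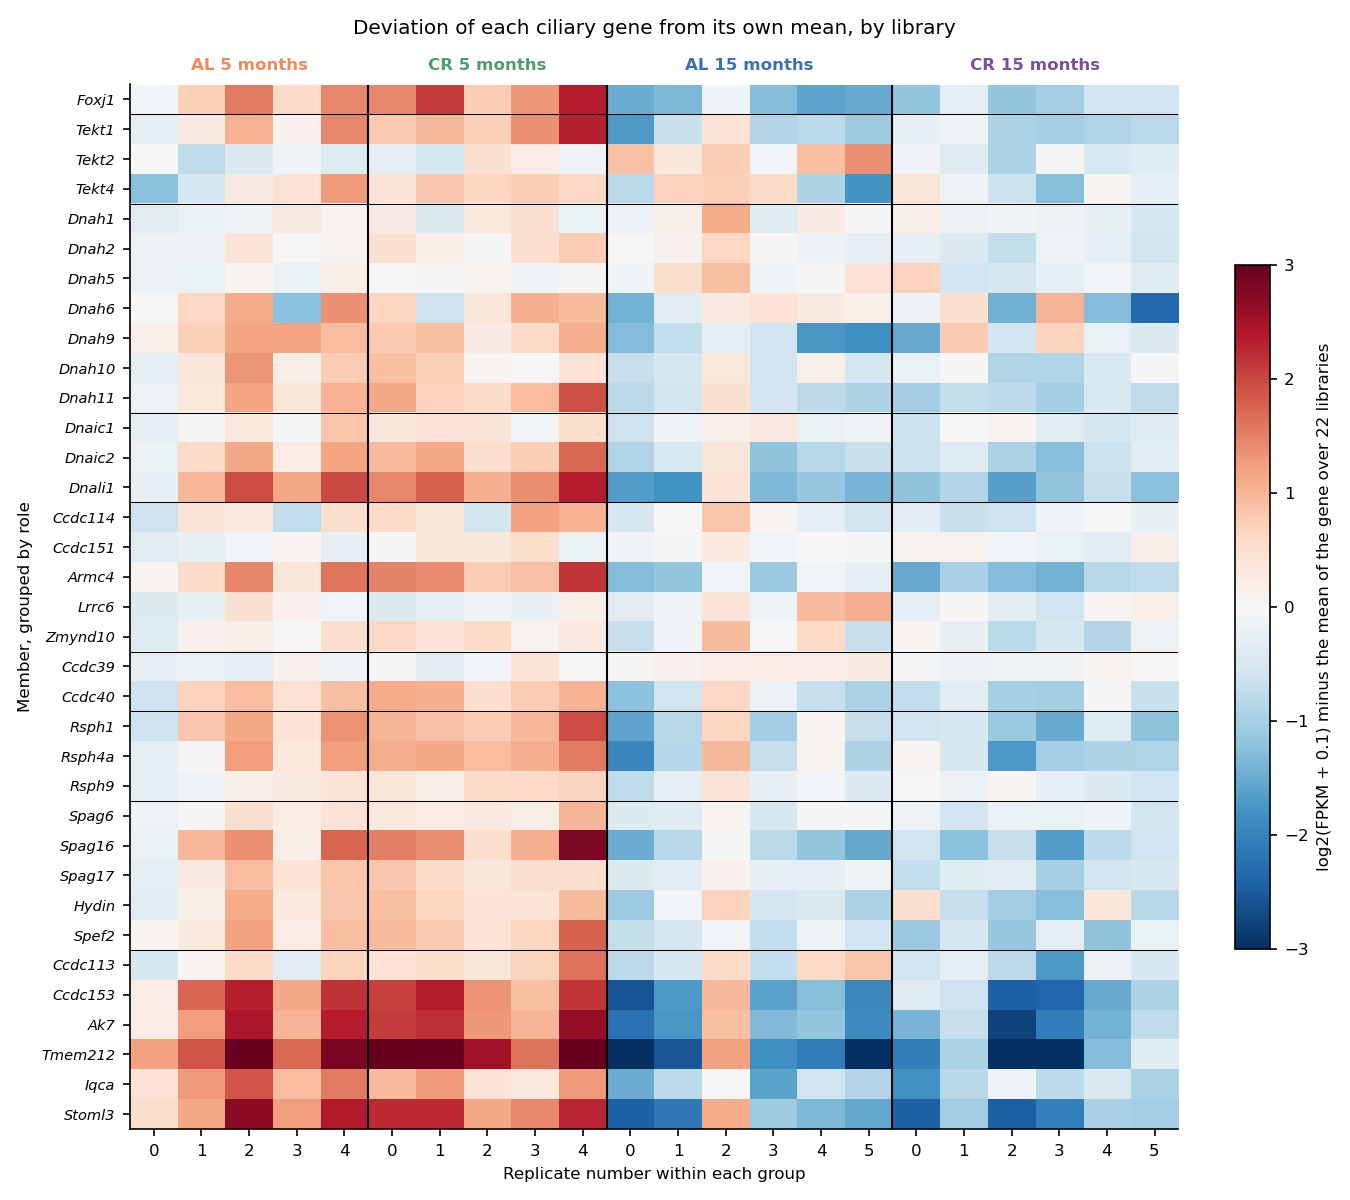
Deviation of log2(FPKM + 0.1) of each member (rows, grouped by role) from its own mean over 22 libraries, with libraries in columns by group and replicate number and colours limited to -3 and 3. Most rows change from red at 5 months to blue at 15 months, AL 15 months replicate 2 is red in most rows, with a median deviation of 0.41, and Tekt2 and Ccdc39 depart from the pattern.

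After group means were taken off, the correlation of each member with the mean of the other 34 across the 22 libraries, where all genes of a library share its dissection and depth, had a median of 0.69. It was over 0.8 for 12 members, led by Ak7 at 0.94, Dnali1 at 0.93 and Rsph1 at 0.90, and under 0.5 for 8 members. The lowest values were 0.17 for Ccdc151, 0.082 for Ccdc39 and -0.21 for Tekt2. None of these 3 was called lower with age in either diet.

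Without AL 15 months replicate 2, 22 members were called lower and 2 higher with age in AL mice, and without AL 5 months replicate 0, 20 lower and 1 higher. All genes called with age in AL mice were 3438 and 3213 in these fits, beside 3502 with all libraries. Without AL 5 months replicate 2, the count in AL mice was 15 in all, and 2382 of all genes were called. Without CR 5 months replicate 4, 18 members were called lower with age in CR mice. In that fit 347 of all genes were called, in place of 570.

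Markers of other cell types were read in the same libraries. Choroid plexus genes, a list of 14 led by Ttr, the thyroxine carrier of that epithelium, summed to between 128.9 and 2458 FPKM in CR mice at 5 months, with the highest in replicate 4, against 34.6 to 357.0 FPKM in AL mice at 5 months, 4.19 to 45.2 FPKM in AL mice at 15 months and 4.82 to 41.7 FPKM in CR mice at 15 months. The median deviation of this list was 5.62 in CR 5 months replicate 4 and 3.21 in replicate 3, and 0.53 to 0.68 in the other 3. Of the 14 genes, 5 were called lower with age in AL mice and 11 in CR mice, and 0 were listed at 0 in all libraries. With CR 5 months replicates 3 and 4 both left out, which was decided after their values were seen, 13 of the 35 members were called lower with age in CR mice and 18 lower and 2 higher in AL mice. All genes called in this fit numbered 230 in CR and 3353 in AL mice. Tekt1, Dnah2, Ccdc40, Rsph1, Rsph4a, Rsph9, Spag6 and Ccdc113 were the members that lost their call in CR mice. Their log2 fold changes remained negative, at -1.52 for Ccdc40, -1.75 for Rsph1 and -1.88 for Rsph4a, beside -1.52, -1.99 and -1.99 with all libraries. Tekt1 had -1.50 and Ccdc113 -1.10, beside -1.90 and -1.39 with all libraries. Dnah2 had -0.59, Rsph9 -0.59 and Spag6 -0.58, beside -0.77, -0.70 and -0.71. The limma adjusted p for the 8 ran from 0.0518 to 0.208.

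The list of 8 ependymal genes that are not part of the axoneme, some of which neurons and astrocytes also express, had 5 genes called lower in each diet with age, with medians of -0.66 in AL and -0.95 in CR mice. Calml4, a calmodulin-like protein, was the largest of these, from 10.02 ± 7.25 to 0.910 ± 0.543 FPKM in AL mice (-3.11 ± 0.61, limma adjusted p = 0.00172) and from 19.1 ± 20.4 to 1.05 ± 0.639 FPKM in CR mice (-3.78 ± 0.61, adjusted p = 0.00109). Ttr of the choroid plexus list fell from 141 ± 116 to 7.65 ± 5.72 FPKM in AL mice. Its means in CR mice were 692 ± 840 and 13.3 ± 11.1 FPKM at 5 and 15 months. The part of choroid plexus in the values of Calml4 was not tested. The summed level of the 8 ependymal genes overlapped between ages, from 428.3 to 546.2 FPKM and from 230.4 to 603.4 FPKM in AL mice. That sum mostly reflects Nnat and S100b, which averaged 337 and 78.2 FPKM over the 22 libraries.

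Markers of the dissected region differed with age as well. Of 8 genes typical of CA1 pyramidal neurons, all of which were detected, 5 were called lower with age in AL mice and 0 in CR mice. Their median log2 fold changes were -1.59 and -0.82, and Spink8 fell from 68.0 ± 26.5 to 6.21 ± 5.29 FPKM in AL mice. Of 8 genes of neocortex and subiculum, 3 were called higher with age in AL mice and 0 in CR mice, led by Cux2, a marker of upper cortical layers, at 4.68 ± 0.366 and 21.5 ± 5.95 FPKM. The part of choroid plexus, of the dissection margin or of single libraries in the age differences of the members was not tested.

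**Figure D4:**
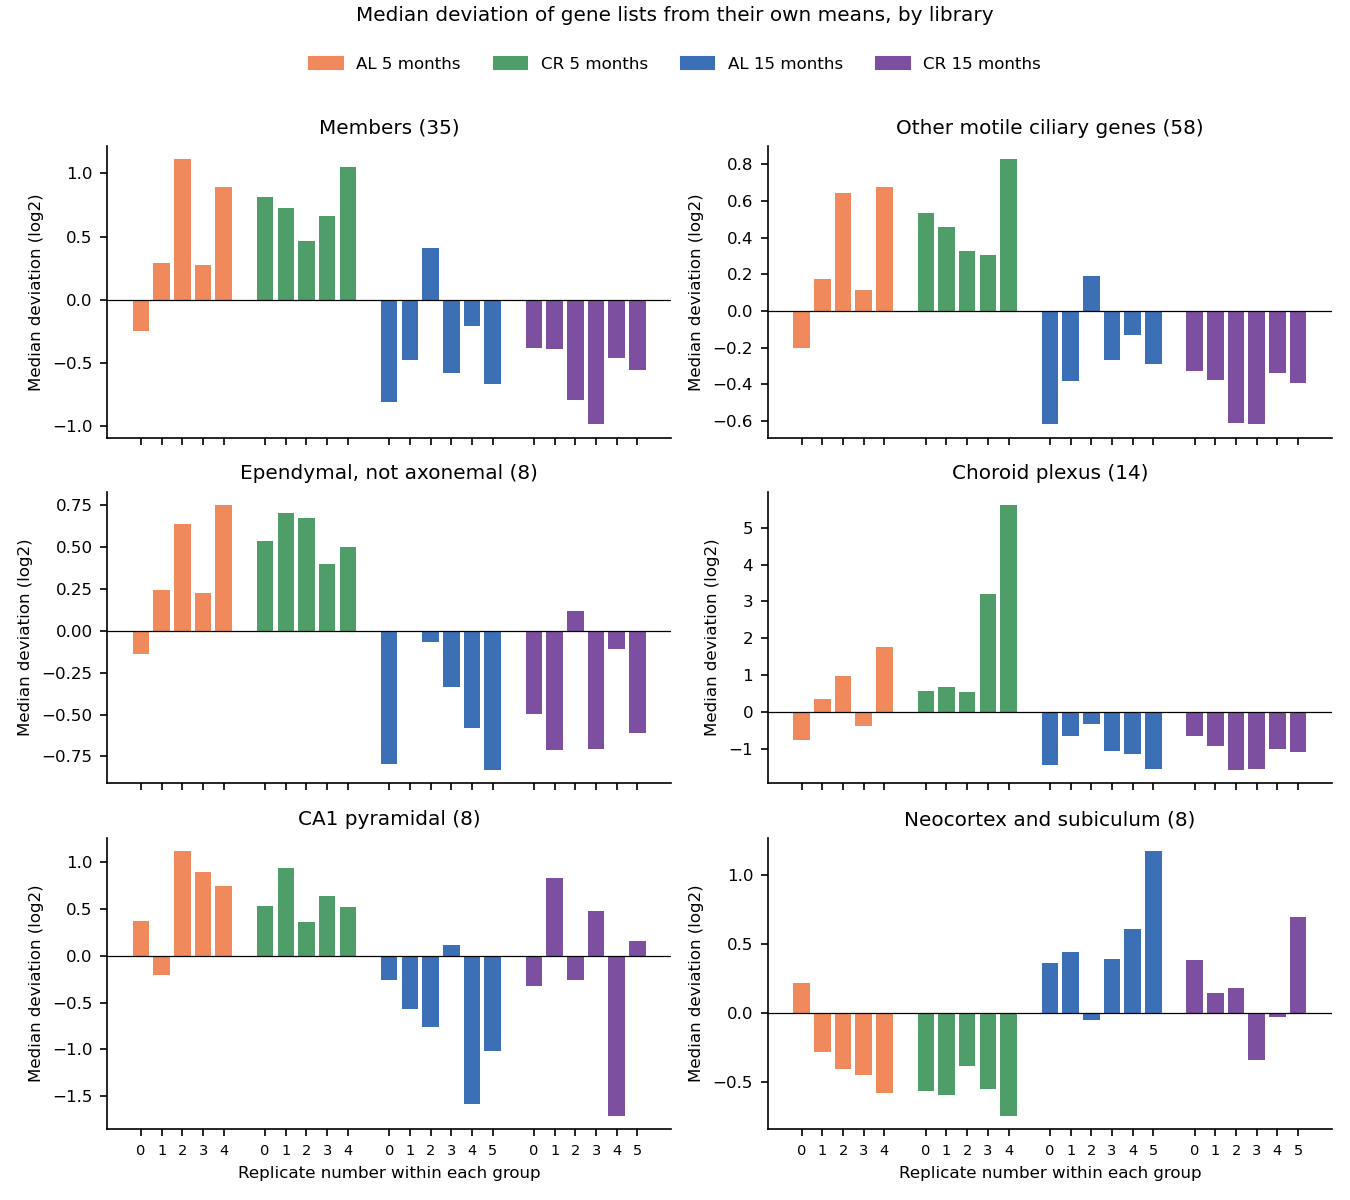
Median deviation (vertical axes, log2, each panel on its own scale) of 6 gene lists from their own means in each of the 22 libraries, in bars coloured by group, with the number of genes in the panel title. AL 15 months replicate 2 is above 0 for the members (0.41) and for the other motile ciliary genes (0.19), choroid plexus genes peak at 5.62 in CR 5 months replicate 4, and neocortex genes are highest in AL 15 months replicate 5.

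Other lists of cell types described here had between 0 and 2 genes called with age in AL mice and 0 in CR mice. Of 6 astrocyte genes, Aldh1l1 rose and Gfap fell in AL mice (log2 fold changes of 0.43 and -0.66). Among the lower genes in AL mice were 1 of 5 microglial genes, Tmem119, and 2 of 6 dentate genes, with Dsp the larger. Of 4 thalamic and habenular genes tested, 2 were higher in AL mice, with Lef1 the larger, and 0 of 5 endothelial genes were called in either diet. All 6 oligodendrocyte genes tested had negative log2 fold changes with age in both diets, with medians of -0.80 in AL and -0.36 in CR mice.

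Genes of the motile cilium outside the set also had lower median values at 15 months. Of 58 tested, 24 were called lower and 1 higher with age in AL mice, and 33 lower and 0 higher in CR mice, with medians of -0.57 and -0.89. The largest falls were those of 1700012B09Rik in AL mice, from 2.04 ± 1.28 to 0.354 ± 0.678 FPKM (-2.85 ± 0.56, limma adjusted p = 0.00171), and of Dynlrb2, a dynein light chain of the roadblock family, in CR mice, from 8.38 ± 3.09 to 0.744 ± 0.534 FPKM (-3.65 ± 0.55, adjusted p = 0.000679). The heavy chain gene Dnahc17 was the one called higher, from 0.105 ± 0.0181 to 0.207 ± 0.0319 FPKM. In CR against AL mice, 0 of the 58 were called at 5 months and 0 at 15 months.

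Lists for intraflagellar transport and the primary cilium had medians near 0. Of 23 genes of intraflagellar transport, which carries cargo along primary and motile cilia alike, 2 were called lower in AL mice and 0 in CR mice, with medians of 0.05 and -0.08. Ift57 had the larger change, -0.31 ± 0.10 (limma adjusted p = 0.0281). Of 16 genes of the primary cilium, 3 were lower and 2 higher in AL mice and 2 lower in CR mice, with medians of 0.07 and -0.01. Gpr161, which is also in the CA1 list, fell by 1.85 on the log2 scale in AL mice, and Mchr1, a receptor of neuronal cilia, fell by 0.71 in CR mice. Among 14 regulators of multiciliated cells other than Foxj1, 3 were lower in AL mice and 2 in CR mice, with medians of -0.20 and 0.01. Negative values were held by 11 of the 14 in AL mice and 6 in CR mice. Trp73, a p53-family factor of multiciliated cells, had -1.99 ± 0.42 in AL mice (limma adjusted p = 0.00306) and Myb had -2.13 ± 0.29 in CR mice (adjusted p = 0.00036).

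Among 13816 genes outside the set with a mean of at least 1 FPKM, the 8 whose deviations from the group means were most like the mean deviation of the members over the 22 libraries were Lrrc23 (r = 0.95), Fam216b (0.92), 2410004P03Rik (0.90), 6820408C15Rik (0.90), 4833427G06Rik (0.89), Maats1 (0.89), Pifo (0.88) and Ccdc135 (0.87). Lrrc23, a radial spoke protein, averaged 3.56 and 1.32 FPKM in AL mice and 5.73 and 0.956 FPKM in CR mice at 5 and 15 months. Its log2 fold changes with age were -1.54 and -2.50 (limma adjusted p = 0.00539 and 0.000465). Pifo, a protein of the ciliary base, had -1.78 and -2.998, and 4833427G06Rik, for which no role is given here, -2.10 and -3.49. Fam216b had -2.83 and -3.49 and Ccdc135, a protein of the axonemal regulatory complex, -2.07 and -3.34. All 8 were called lower with age in CR mice, and all but 6820408C15Rik and Maats1 in AL mice.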

How the data were processed

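The authors sequenced mRNA from the CA1 of 22 mice, 1 library per mouse, aligned reads to mm10 with TopHat, removed duplicates with Picard and estimated FPKM with Cufflinks, correcting for fragment bias and multi-mapped reads. The deposited FPKM matrix was used as it stands. Whole reads could not be recovered from it: at most 0.288% of genes shared a common ratio in any of 3 library pairs, within a tolerance of 0.001, so the depth behind single values is unknown and the spread between mice gives the precision.

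All genes averaging 0.1 FPKM or more were tested as log2(FPKM + 0.1) in 1 limma fit (limma 3.58.1, R 4.3.3) of the 4 groups, with eBayes and an intensity trend, in place of the Cuffdiff test on reads that the authors used. Comparisons were 15 against 5 months in each diet, CR against AL at each age, and the interaction, two-sided, with Benjamini-Hochberg adjustment over all genes tested within each comparison and a threshold of 0.05. The steps were tested on simulated data with normal errors, in which 200 genes were altered by 1 or 2 log2 units. Between 98.5% and 100% of these were recovered, and 10 to 13 other genes were called. Genes of wide spread were not altered, so the recovery of members with a wide spread is unknown. A p-value sets the difference of group means against the spread between these mice, as estimated over the 4 groups.

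The members, the 14 other lists, the tests and the alternatives were chosen with earlier results of these data known. Genes given in full are Foxj1, Tekt2, the 2 members of the highest mean level in each role group, members past the threshold for age in AL or CR mice or for diet at 5 months, the 8 genes most like the members, and the largest called rise or fall in each other list. 1 gene of a cell type list is not reported by itself here. Older symbols were matched through RefSeq synonyms. Gene positions and exon overlaps are from GENCODE M21 on GRCm38, promoters from RefSeq on GRCm38.p6. Python 3.11.15 with pandas 2.3.3, numpy 2.4.6 and matplotlib 3.10.9 was used for tables and figures.

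Alternatives were a pseudocount of 1 or 0.01, no filter, a mean FPKM of at least 1, a common median, quantile normalization, no trend, a separate fit of 2 groups, the replicate number as a block, and each of the 22 libraries left out. Leaving out CR 5 months replicates 3 and 4 together was added after the data were seen.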

Additional observations from a re-analysis of the deposited data

Results flagged for a closer look

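A value was singled out when the highest or lowest library of a group stood apart from the next by more of the range of the group than the 95% critical value of Dixon's test allows. Over the 28 members given in full and the 4 groups, 112 sets of values were examined and 18 were singled out, all of them the highest of their group. For normally distributed values, chance singles out about 1 in 20 groups. The values examined here were FPKM, not their logarithms, and their distribution was not tested, so the rate by chance is not known. The members are also not independent of each other.

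In AL mice at 15 months, replicate 2 was apart in 12 members. With its value, the next library and the gap as a share of the range, these were Foxj1 (2.48 FPKM, next 1.06 FPKM, share 0.866), Tekt1 (2.69 FPKM, next 1.23 FPKM, share 0.682), Dnah2 (0.847 FPKM, next 0.569 FPKM, share 0.652), Dnah11 (0.277 FPKM, next 0.0858 FPKM, share 0.818), Dnaic2 (1.12 FPKM, next 0.594 FPKM, share 0.651), Dnali1 (1.14 FPKM, next 0.332 FPKM, share 0.830), Ccdc151 (4.18 FPKM, next 3.38 FPKM, share 0.731), Spag16 (0.455 FPKM, next 0.208 FPKM, share 0.673), Ccdc153 (3.56 FPKM, next 0.665 FPKM, share 0.863), Ak7 (1.56 FPKM, next 0.290 FPKM, share 0.862), Tmem212 (2.81 FPKM, next 0.251 FPKM, share 0.910) and Stoml3 (1.08 FPKM, next 0.158 FPKM, share 0.853).

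In CR mice at 5 months, replicate 4 was apart in 6 members, in the library that also had the highest choroid plexus levels. They were Tekt1 (10.3 FPKM, next 5.31 FPKM, share 0.719), Rsph1 (16.9 FPKM, next 8.76 FPKM, share 0.840), Rsph4a (5.55 FPKM, next 4.06 FPKM, share 0.731), Spag6 (7.75 FPKM, next 4.73 FPKM, share 0.871), Spag16 (3.74 FPKM, next 1.45 FPKM, share 0.742) and Ccdc113 (6.53 FPKM, next 3.32 FPKM, share 0.822). How far either library's state sets the members' values was not tested.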

How the results depend on the processing

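The count of members called with age in AL mice, 19, became 11 of 23 members tested when a mean FPKM of at least 1 was required, and that in CR mice, 21, became 12 of 23, since 12 members of lower level were no longer tested. Leaving out 1 library at a time gave 15 to 24 in AL mice and 18 to 23 in CR mice. Over the same fits, all genes called ran from 2382 to 3919 in AL mice and from 331 to 775 in CR mice. Without CR 5 months replicates 3 and 4, the count in CR mice was 13, and 230 of all genes were called in place of 570. No alternative called a member for CR against AL at 5 months, and leaving out 1 library gave 0 in each case. At 15 months the count was 1, Tekt2, and was 0 with quantile normalization, with a separate fit of the 2 groups and without both CR 5 months libraries, and 0 to 3 with 1 library left out. The 3 were called without CR 15 months replicate 0, where 732 of all genes were called in place of 126. The other fits without 1 library called 15 to 492 of all genes. The causes were not tested.

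Members were followed under the alternatives where they had been called with age, and Foxj1 and Tekt2 in every comparison of age or diet. Of these values, 1374 kept their direction and their side of the threshold, 49 kept the direction but lost the call, and 0 reversed. Results of the other members that were not called were left out, so most gained calls could not appear in this tally. Replicate numbers did not pair mice: over 31 pairs with the same number, correlations of deviations ran from -0.139 to 0.163, with 2 over 0.1. With the replicate number as a block, 20 members were called with age in AL mice, 21 in CR mice, 0 for diet at 5 months and 1 at 15 months. Common median or quantile scaling moved the median of all genes by less than 0.05 on the log2 scale. In CR against AL at 15 months, 70 genes were called lower and 56 higher, and 51 and 87 with a common median and 25 and 52 with quantile normalization. The FPKM values carry no depth, so an absence of a difference in the lowest members cannot be told from a lack of reads.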
